A study of Mus musculus with 2 samples.

Results

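The genes described here are those that make, sense and break down prostaglandins. They are 10 of the 44291 genes measured by RNA-seq in FAPs (fibro-adipogenic progenitors) of the mouse, the stromal cells of muscle from which fat cells can arise. Members were found by gene symbol, a rule that uses no measured value, but the list was chosen with earlier results of these data known. They are the phospholipase Pla2g4a, the cyclooxygenases Ptgs1 and Ptgs2, the terminal synthases Ptges, Ptges3 and Ptgis, the receptors Ptger2, Ptger4 and Ptgfr, and the degrading enzyme Hpgd. Both groups were primary FAPs of WT genotype, which the study sorted from hind limb muscle, and the labels give neither strain nor age. One group was treated with platelet-rich plasma (PRP) and the other with vehicle (control), and both were then kept in adipogenic induction medium (insulin at 10 μg/ml, dexamethasone at 0.25 μM and IBMX at 0.5 mM, with FBS at 20%). The labels name the treatment PRP, and the label is used here. For this transcriptome the study's text speaks instead of exosomes purified from the PRP of young human donors. Each group had 1 library, so each difference is between 2 libraries, has no replicate check and has no p-value.

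Prostaglandins are short-lived lipid signals. A phospholipase frees arachidonic acid from the membrane, a cyclooxygenase turns it into the common precursor prostaglandin H2, and a terminal synthase makes the final product, such as prostaglandin E2 or prostacyclin. Each product acts on its own G protein-coupled receptors nearby, and hydroxyprostaglandin dehydrogenase (Hpgd) inactivates it after uptake. In precursors of fat cells, prostacyclin is known to favour and prostaglandin F2α to oppose adipogenesis. Of the medium's components, IBMX raises cAMP and the glucocorticoid dexamethasone is a classic repressor of Ptgs2.

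The promoters of the cyclooxygenases and of Hpgd are shown because Ptgs2 and Hpgd differed most among the 8 members with a mean level of at least 1 FPKM (defined with the values) while Ptgs1 hardly differed. The promoters are from RefSeq (GRCm38.p6), and all 10 members but Ptgis had an entry in its table (10 windows of 9 genes). Each run holds 250 bases before and 30 bases after the annotated start. Capitals mark letters of a CRE half-site (TGACG), an E-box (CACGTG), a C/EBP motif (TTNCNNAA) or a TATA box (TATAAA), on either strand.

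Ptgs2 promoter (chr1:150099781-150100060, plus strand): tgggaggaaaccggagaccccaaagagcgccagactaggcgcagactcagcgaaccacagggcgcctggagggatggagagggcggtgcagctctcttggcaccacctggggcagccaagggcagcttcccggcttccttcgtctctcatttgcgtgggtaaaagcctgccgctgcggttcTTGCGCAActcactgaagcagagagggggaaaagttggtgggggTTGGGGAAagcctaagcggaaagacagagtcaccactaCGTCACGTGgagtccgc

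Ptgs1 promoter (chr2:36230176-36230455, plus strand): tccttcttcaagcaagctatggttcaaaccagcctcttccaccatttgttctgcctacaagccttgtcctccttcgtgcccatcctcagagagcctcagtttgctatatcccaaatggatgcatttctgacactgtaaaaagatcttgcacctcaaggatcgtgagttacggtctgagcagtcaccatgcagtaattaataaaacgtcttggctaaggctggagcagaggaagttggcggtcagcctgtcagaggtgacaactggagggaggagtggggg

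Hpgd promoter (chr8:56294302-56294581, plus strand): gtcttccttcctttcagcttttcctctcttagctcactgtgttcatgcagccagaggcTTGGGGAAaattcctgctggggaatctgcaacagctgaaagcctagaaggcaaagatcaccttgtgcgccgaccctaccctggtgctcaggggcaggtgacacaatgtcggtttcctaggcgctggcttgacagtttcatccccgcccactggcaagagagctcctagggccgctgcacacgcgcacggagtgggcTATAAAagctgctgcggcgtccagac

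In the Ptgs2 window a CRE half-site began at position 14 and an E-box at position 17, counting the annotated start as 1, so that the 2 motifs share letters, and C/EBP motifs began at 69 and 25 bases before it. Over 32851 promoter windows of 300 bases, 20.8% held the CRE half-site, 7.15% the E-box and 40.7% the C/EBP motif. Hpgd held a C/EBP motif and a TATA box, the latter found in 13.6% of the windows. Other than the E-box, these motifs were not particular to the printed genes. Of the 10 member windows 6 held the C/EBP motif, 2 the CRE half-site (also Ptges3) and 2 the TATA box (also Pla2g4a). The E-box was in 1 of them, that of Ptgs2. The Ptgs1 run had none of the marked motifs, and its window held only a glucocorticoid half-site (TGTTCT), a motif found in 19.0% of windows. The full CRE (TGACGTCA, 1.79% of windows) and the AP-1 motif (TGANTCA, 7.81%) were in none of the members' windows. A κB motif (GGGNNTTTC, 4.36% of windows) was in that of Ptger4 only. Both strands were searched, and a match describes letters and no bound factor.

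The study names let-7f-5p and miR-16-5p as active cargo of PRP exosomes. Their mature mouse sequences (RefSeq) are shown with the seed, bases 2 to 8, in capitals, since a match to the seed in a 3'UTR is the usual sign of a possible target.

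let-7f-5p: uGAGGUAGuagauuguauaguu

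miR-16-5p: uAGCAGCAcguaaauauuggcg

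None of the 10 members had a let-7f-5p seed match (CTACCTC) in its longest annotated 3'UTR, against 9.86% of 10292 expressed genes. The miR-16-5p match (TGCTGCT) was in Ptgs2 and Ptgfr, that is in 2 of 10 members against 24.6% of those genes. Ptgs2 held 2 matches in a 3'UTR of 2445 bases, a number reached by 11.1% of 3'UTRs of similar length. The sites are shown with the match in capitals.

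Ptgs2 site 1 (chr1:150106551-150106579, plus strand): ggtggagcccgTGCTGCTctgtcttaact

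Ptgs2 site 2 (chr1:150106957-150106985, plus strand): gatgccagcatTGCTGCTcctcttagttc

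Ptgfr site (chr3:151796944-151796972, minus strand): ccatcacaggcTGCTGCTcattccagagg

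The members with a miR-16-5p match lay on opposite sides, since Ptgs2 was higher and Ptgfr lower in the PRP library (values given with each gene). The number of AU-rich elements, which mark mRNAs of many inflammatory genes for fast decay, also differed between the members. Counted by the pentamer ATTTA, Ptgs2 held 14, where the median of 1538 3'UTRs of similar length was 4 and 1.11% held as many. Pla2g4a, with a 3'UTR of only 443 bases, held 4, as many as 2.43% of 3'UTRs of similar length, and Hpgd held 4 in 838 bases (10.6%). Ptgs1 (921 bases) and Ptges (3106 bases) held 0, where 71.6% and 96.6% of 3'UTRs of similar length held at least 1. Ptgis (417 bases) also held 0. Ptgfr, lower in the PRP library, held 14 in 5122 bases (20.1%). Ptger2 held 6 (19.2%), Ptger4 held 5 (12.5%) and Ptges3 held 4 (21.4%). Of the members with 0, Ptges was higher in the PRP library, Ptgis was lower and Ptgs1 hardly differed. A link between the counts and the differences was not tested. By the stricter nonamer TTATTTATT, Ptgs2 held 1, as did 12.4% of 3'UTRs of similar length, and Pla2g4a and Hpgd held 0. The densest 30 bases of the Ptgs2 3'UTR held 4 pentamers, shown in capitals, and start 12 bases into it.

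Ptgs2 AU-rich stretch (chr1:150105794-150105823, plus strand): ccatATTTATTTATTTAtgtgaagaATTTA

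**Figure D1:**
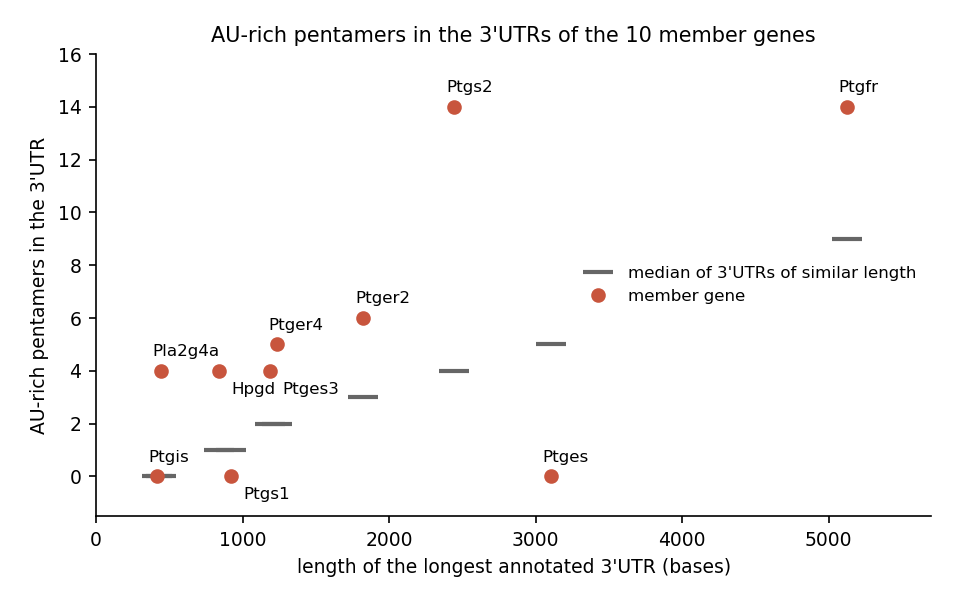
Number of AU-rich pentamers (y axis) against the length of the longest annotated 3'UTR in bases (x axis), for the 10 members (points) and as the median of expressed genes with 3'UTRs of similar length (bars). Ptgs2 and Ptgfr held 14 each, whereas Ptgs1, Ptges and Ptgis held 0.

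To examine the level of each step, FPKM was compared, a level scaled to exon length and to the total of assigned reads. The total of reads assigned to genes was 40120843 with PRP and 34139741 in the control. All 10 members came out as whole reads, so that counting intervals could be given. These are 95% intervals, cover counting error only and take no account of the spread between cultures. Of the 10 members, 8 had a mean FPKM of at least 1, and Ptger2 and Ptgfr did not. Among these 8, Ptgs2 and Hpgd (2 genes) were at least 2-fold higher in the PRP library on the log2(FPKM + 1) scale and 0 were at least 2-fold lower. Over all 13401 genes with that mean FPKM, 2.00% were at least 2-fold higher and 0.828% at least 2-fold lower. The median log2 fold change of the 8 genes was 0.34, against 0.01 over all genes. Since the list was chosen with earlier results known, these comparisons describe it and test nothing. The interval of the ratio lay above 1 for 6 of the 8 and below 1 for 1, where 26.2% and 26.1% of 12367 genes with whole reads had such intervals.

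**Figure D2:**
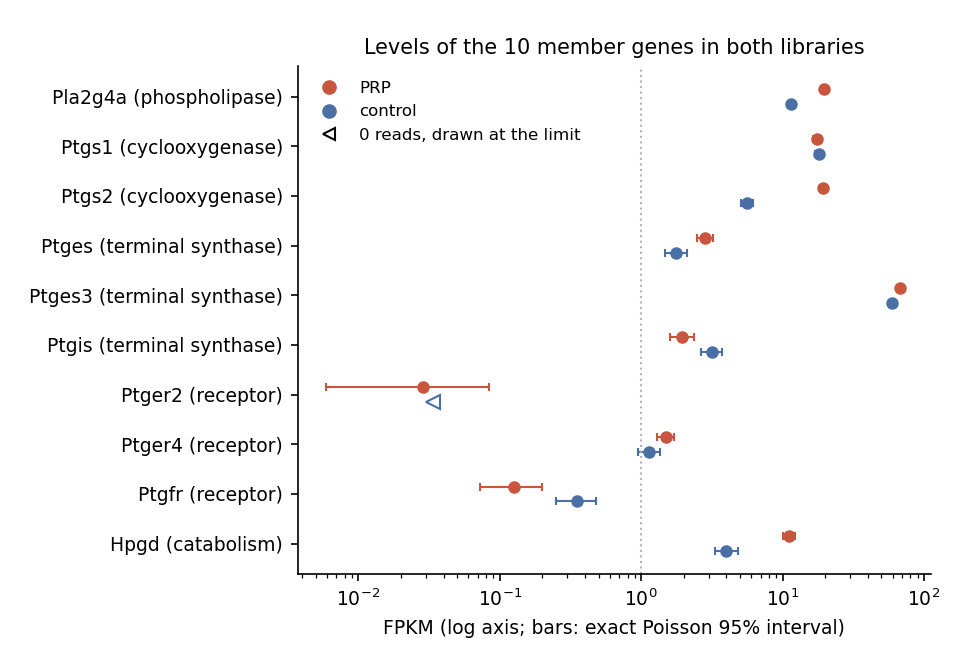
FPKM of the 10 members on a log axis in the PRP library (red) and the control library (blue), with exact Poisson 95% intervals as bars, and a dotted line at an FPKM of 1. The open triangle stands for 0 reads of Ptger2 in the control library, drawn at the limit of 3 fragments. Ptgs2, Hpgd, Pla2g4a, Ptges and Ptges3 (higher with PRP) and Ptgis and Ptgfr (lower) lie apart by more than their bars. Ptgs1 and Ptger4 do not.

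At the first step, Pla2g4a was higher in the PRP library. It encodes the cytosolic phospholipase A2 that releases arachidonic acid (ENSMUSG00000056220, chromosome 1, 149829618 to 149961290, minus strand). Its level was 19.7 FPKM with PRP and 11.5 FPKM in the control, from 5060 and 2505 reads. The ratio was 1.72 (interval 1.61 to 1.84), and 510 of the 13401 genes had a higher log2 fold change than its 0.73.

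The cyclooxygenases differed from each other. Ptgs2, the inducible cyclooxygenase-2 (ENSMUSG00000032487, chromosome 1, 150100031 to 150108227, plus strand), had 19.3 FPKM with PRP and 5.63 FPKM in the control. This was a ratio of 3.43 (interval 3.09 to 3.82, from 3551 and 880 reads), and 64 genes had a higher log2 fold change than its 1.62. Ptgs1, the constitutive cyclooxygenase-1 (ENSMUSG00000047250, chromosome 2, 36230426 to 36252272, plus strand), had 17.4 FPKM with PRP and 18.0 FPKM in the control. Its ratio of 0.965 had an interval of 0.892 to 1.04 that includes no change and lies wholly below that of Ptgs2. The order of the genes by FPKM therefore turned over. In the control library Ptgs2 had 0.313 times the FPKM of Ptgs1, and in the PRP library 1.11 times. Their summed FPKM was 23.6 in the control library and 36.7 in the PRP library, of which Ptgs2 made up 23.8% and 52.7%. The intervals of the PRP levels, 18.4 to 20.2 FPKM for Ptgs2 and 16.5 to 18.3 FPKM for Ptgs1, did not overlap. They cover counting error only and not the choice of exon length (4580 and 3884 bases) by which each level is divided. The order of the 2 genes within a library is therefore uncertain, while the ratio of each gene between libraries does not depend on that length.

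The terminal synthases moved in both directions. Ptges encodes the inducible microsomal prostaglandin E synthase, which works together with cyclooxygenase-2 (ENSMUSG00000050737, chromosome 2, 30889471 to 30929863, minus strand). It had 2.82 FPKM with PRP and 1.77 FPKM in the control, a ratio of 1.59 (interval 1.27 to 2.00). Ptgis encodes prostacyclin synthase (ENSMUSG00000017969, chromosome 2, 167191805 to 167240604, minus strand). It was lower, at 1.95 against 3.16 FPKM, a ratio of 0.617 (interval 0.473 to 0.804, from 201 and 277 reads). Of the summed FPKM of Ptges and Ptgis, Ptges held 35.9% in the control library and 59.1% in the PRP library. The gene with the higher FPKM thus changed from Ptgis to Ptges, an order that also depends on the exon lengths used. Neither was 2-fold changed.

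Ptges3 was the most abundant member, with 67.9 FPKM with PRP and 59.3 FPKM in the control. It encodes p23, a co-chaperone of HSP90 that also has prostaglandin E synthase activity (ENSMUSG00000071072, chromosome 10, 128058954 to 128077272, plus strand). Its ratio of 1.14 (interval 1.08 to 1.21) was small, and 3627 genes had a higher log2 fold change. The value is uncertain, since the processed pseudogene Ptges3-ps (31.1 and 29.5 FPKM, ratio 1.05) shares 100% of its 50-base stretches with Ptges3 transcripts and reads can be split between the copies.

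The receptors among the members were low. Ptger4, the EP4 receptor of prostaglandin E2 that raises cAMP (ENSMUSG00000039942, chromosome 15, 5206661 to 5244187, minus strand), had 1.49 FPKM with PRP and 1.14 FPKM in the control. The ratio was 1.31 (interval 1.04 to 1.65), and 16.5% of its exon length overlaps genes on the other strand. Ptgfr, the FP receptor of prostaglandin F2α (ENSMUSG00000028036, chromosome 3, 151796502 to 151837630, minus strand), had 0.125 FPKM with PRP and 0.350 FPKM in the control. This is a ratio of 0.357 (interval 0.190 to 0.644) from 34 and 81 reads. Ptger2, the EP2 receptor (ENSMUSG00000037759, chromosome 14, 44988195 to 45003820, plus strand), had 6 reads with PRP and 0 in the control. A count of 0 allows up to 0.0338 FPKM, above the 0.0288 FPKM of the PRP library, so no difference was detectable at this depth.

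The degrading enzyme moved in the same direction as Ptgs2. Hpgd (ENSMUSG00000031613, chromosome 8, 56294585 to 56321043, plus strand) had 11.1 FPKM with PRP and 4.003 FPKM in the control. This was a ratio of 2.77 (interval 2.246 to 3.45, from 750 and 230 reads), and 135 genes had a higher log2 fold change than its 1.28. The FPKM of Hpgd was 0.711 times that of Ptgs2 in the control library and 0.575 times in the PRP library.

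**Figure D3:**
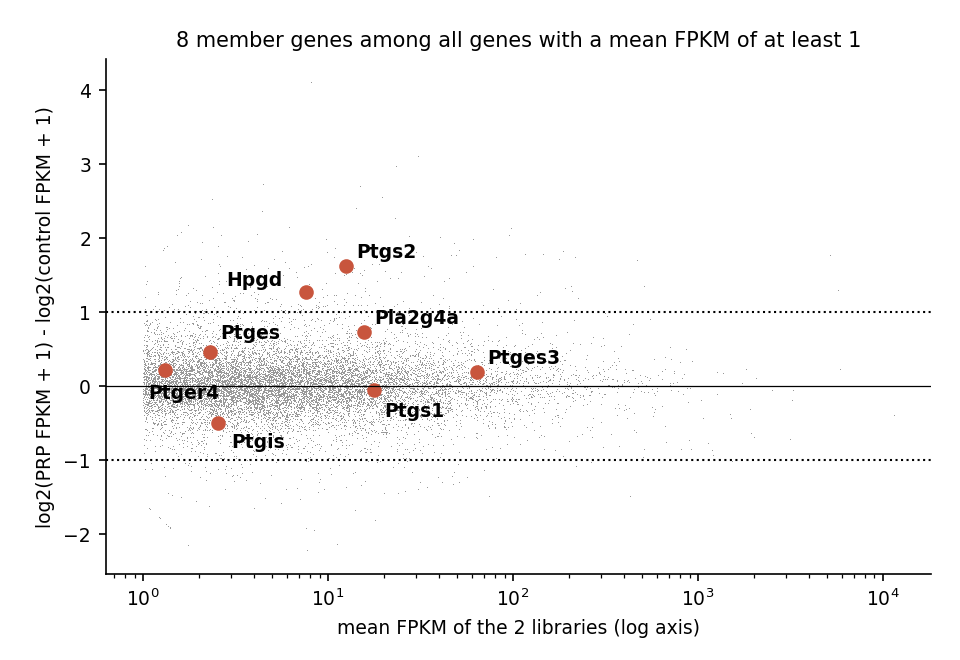
Difference of log2(FPKM + 1) between the PRP and control libraries (y axis) against the mean FPKM of the 2 libraries (x axis, log scale) for 13401 genes (grey) and the 8 members with a mean FPKM of at least 1 (red). Dotted lines mark 2-fold, and Ptgs2 (1.62) and Hpgd (1.28) are the members above the upper line.

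The rest of the pathway was described with 39 other prostanoid genes, of which 20 reached a mean of 1 FPKM. Akr1c18 and Cbr3 (2 genes) were at least 2-fold higher, against 2.00% of all genes, and 0 were at least 2-fold lower, against 0.828%. The median log2 fold change was 0.06, with 11 genes higher and 9 lower, where 50.9% of all genes were higher. Akr1c18, an aldo-keto reductase that acts on progesterone and can make prostaglandin F2α, had 43.7 FPKM with PRP and 19.5 FPKM in the control (ratio 2.24, interval 2.00 to 2.52). It belongs to a family of similar genes, so its reads may be shared with relatives. Of the 4 terminal synthases among the 20 genes, Akr1c18 alone (1 gene) had an interval above 1, where 26.2% of all genes did. The intervals of the other 3 included 1. Cbr3, a carbonyl reductase listed with prostaglandin catabolism, had 13.3 against 5.84 FPKM (ratio 2.28, interval 1.85 to 2.83). Its relative Cbr1 had 13.3 and 12.8 FPKM (ratio 1.04, interval 0.928 to 1.16).

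Of the other phospholipases, 5 of 16 reached a mean of 1 FPKM. Pla2g2e, a secreted phospholipase and the most abundant of them, had 18.8 against 14.9 FPKM (ratio 1.26, interval 1.06 to 1.49). Pla2g15, the lysosomal phospholipase, had a lower level, 2.17 FPKM with PRP and 5.33 FPKM in the control (ratio 0.407, interval 0.328 to 0.503). Its log2 fold change of -0.998 fell just short of 2-fold, and passed it when the libraries were rescaled or centred. Of 3 transporters that carry prostaglandins across the membrane, 2 had higher levels in the PRP library and 1 had a lower level. Abcc4, which exports them, had 6.23 against 3.98 FPKM (ratio 1.56, interval 1.39 to 1.76), and Slco2a1, which takes them up for degradation, 4.57 against 2.97 FPKM (ratio 1.54, interval 1.40 to 1.69). Slco3a1 had 2.07 against 2.90 FPKM (ratio 0.714, interval 0.618 to 0.825). Of the enzymes that act after Hpgd, the most abundant was Ptgr1 at 18.5 against 18.7 FPKM (ratio 0.988, interval 0.894 to 1.09).

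Among the prostanoid receptors, the 2 most abundant were not members. Ptgir, the prostacyclin receptor that raises cAMP, had 23.5 FPKM with PRP and 17.4 FPKM in the control (ratio 1.35, interval 1.245 to 1.46). Ptger1, the EP1 receptor, had 14.96 against 17.9 FPKM (ratio 0.835, interval 0.779 to 0.894). The value of Ptger1 is uncertain, since whether counting used strand is not given in the sources used here. Over the 9 receptors, Ptgir held 46.1% of the summed FPKM in the control library and 57.8% in the PRP library, whereas Ptger4 held 3.01% and 3.66%. The thromboxane receptor Tbxa2r and Ptgfr together with the receptors Ptger3, Ptgdr and Ptgdr2 stayed under 1 FPKM in both libraries. The synthases of prostaglandin D2 (Ptgds and Hpgds) and of thromboxane (Tbxas1) also stayed under 1 FPKM.

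**Figure D4:**
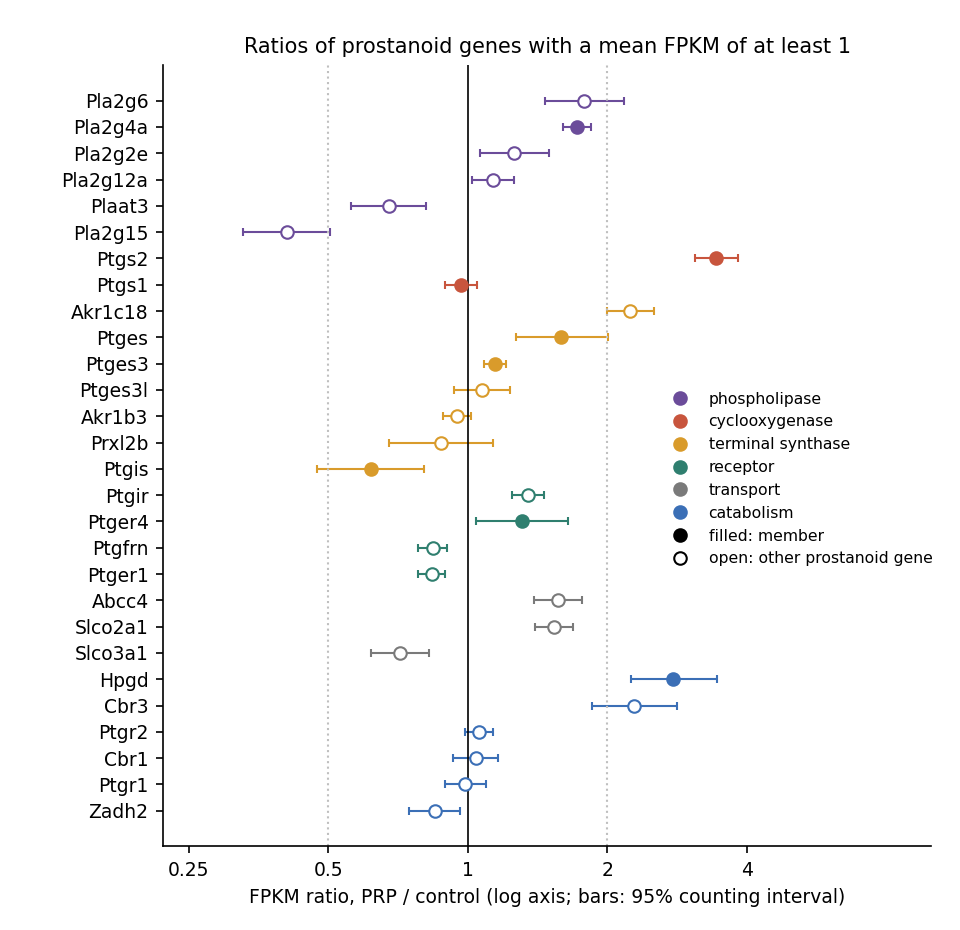
Ratio of FPKM, PRP over control (x axis, log scale), with 95% counting intervals, for 8 members (filled points) and 20 other prostanoid genes (open points) with a mean FPKM of at least 1, coloured by role. Ptgs2, Hpgd, Akr1c18 and Cbr3 have ratios above 2, and Pla2g15 has one below 0.5.

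**Figure D5:**
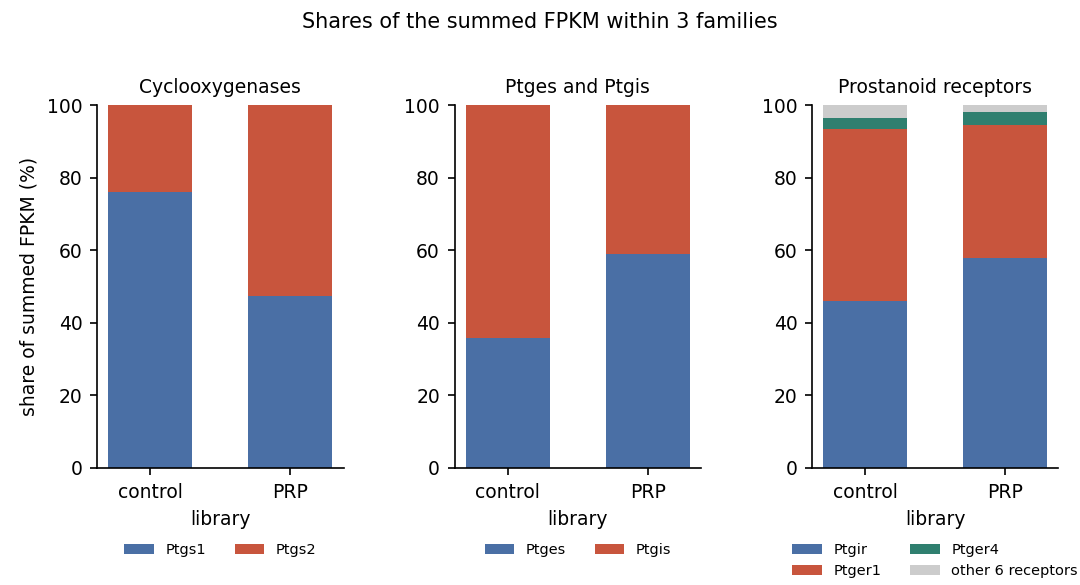
Share of the summed FPKM (y axis, percent) held by each gene in the control and PRP libraries, for the cyclooxygenases (left), Ptges and Ptgis (middle) and 9 prostanoid receptors (right). Ptgs2 makes up 23.8% of the cyclooxygenase sum in the control library and 52.7% in the PRP library.

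Regulators of the pathway were described in the same way. Of 20 such genes, 15 reached a mean of 1 FPKM and 0 were at least 2-fold changed in either direction (2.00% and 0.828% of all genes were higher and lower). Their median log2 fold change was 0.18. Of the 15, 10 genes were higher (9 when rescaled without mitochondrial and top genes), where 50.9% of all genes were higher. Annexin A1 (Anxa1), a glucocorticoid-induced protein that restrains phospholipase A2, had 416.2 FPKM with PRP and 321.5 FPKM in the control (ratio 1.29, interval 1.27 to 1.32). Cebpb, a transcription factor that binds C/EBP motifs, had 22.6 against 18.4 FPKM (ratio 1.23, interval 1.09 to 1.39). Tnfrsf1a, the main receptor of TNF, had 15.7 against 20.7 FPKM (ratio 0.757, interval 0.688 to 0.833). Of the proteins that bind AU-rich elements, Zfp36l2 was the most abundant on average, at 10.9 against 11.6 FPKM (ratio 0.937, interval 0.844 to 1.04). The cytokines Il1b, Il1a and Tnf, classic inducers of Ptgs2, were each under 1 FPKM in both libraries, with at most 14 reads (Tnf).

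Markers of cell types were checked beside these values. Of 10 FAP markers 9 reached a mean of 1 FPKM, such as Pdgfra at 19.8 FPKM with PRP and 28.0 FPKM in the control, while Lum had under 0.1 FPKM in both. All 9 were lower in the PRP library (median log2 fold change -0.43), with Dpt at least 2-fold lower (18.8 against 50.2 FPKM). Of all genes, 50.9% were higher and 0.828% at least 2-fold lower. Macrophages also express Ptgs2 and Ptges, and the study lists antibodies to CD45 (Ptprc) and CD31 (Pecam1), which mark leukocytes and endothelial cells, for its cell staining. The summed FPKM of 8 macrophage markers was 11.2 with PRP and 11.1 in the control, with Ptprc at 8 and 12 reads and Adgre1 at 4 and 6 reads. Cd68 was at 4.56 against 2.31 FPKM and Lyz2 at 4.91 against 7.57 FPKM. The summed FPKM of 6 endothelial markers was 9.59 against 5.46, with Kdr at 4.23 against 1.499 FPKM, Pecam1 at 47 and 10 reads (ratio 3.999, interval 1.49 to 13.4), Vwf at 93 and 46 reads and Cdh5 at 16 and 14 reads. Of 6 myogenic markers 5 were found, with a summed FPKM of 2.95 against 3.43. This was almost all Des (2.91 against 3.39 FPKM). Pax7 and Myog were at 0 in both libraries, Myod1 had 0 and 2 reads and Cdh15 had 4 and 0. The summed FPKM of 6 mural markers was 70.7 against 91.2, that of 6 adipocyte markers 56.8 against 47.8, and that of 5 platelet markers 1.51 against 2.62. The mural sum is mostly Pdgfrb (68.5 against 88.7 FPKM), with Rgs5 at 0.285 against 0.296 FPKM. The adipocyte sum is mostly Fabp4 (40.7 against 33.6 FPKM). Of the 4 adipocyte markers with a mean of at least 1 FPKM, 3 were higher and Plin1 was lower (1.73 against 2.10 FPKM). The platelet sum is mostly Gp1bb (0.872 against 2.26 FPKM), of whose exon length 92.9% overlaps other genes on the same strand, so its value is uncertain. Itga2b had 0.567 against 0.365 FPKM (ratio 1.55, interval 1.01 to 2.43), Pf4 had 2 and 0 reads, and Ppbp and Gp9 were at 0 in both libraries. Their part in the differences was not tested, and in bulk RNA a change in the number of cells of a type cannot be told apart from a change of RNA per cell.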

How the data were processed

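RNA-seq was analysed for 1 PRP-treated and 1 control library of mouse FAPs. RNA was extracted with TRIzol, and 2 μg entered a stranded mRNA kit. Per the labels and the submitters' processing notes, the authors trimmed reads with fastp 0.23.4, aligned them to mm10 with STAR 2.5.3a and counted them with featureCounts. The deposited values are FPKM per gene as the authors computed them, and the annotation release and use of strand are not given in the sources used here. From these values, exon lengths of GENCODE M21 (GRCm38) were used to recover whole reads (26398 of 28152 genes above 0, 93.8%, within 0.001 reads). Even read numbers prevailed among low counts (79.3% and 80.3% of genes with up to 8 reads), and intervals were therefore computed on reads divided by 2. The interval of a ratio is the Clopper-Pearson 95% interval of the PRP share of fragments. PCR duplicates are not accounted for. The log2 fold change was taken on log2(FPKM + 1), which understates changes of low genes, for genes whose mean reached 1 FPKM. No count test was run, since FPKM is not a count and there is 1 library per group.

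Members and lists were chosen with earlier results of these data known. Named genes were all members, and, of the other prostanoid, lipoxygenase and regulator lists but not of the markers, genes changed at least 1.5-fold and the most abundant gene of each role. The alternatives tried were pseudocounts, filters, rescaling, centring and fold thresholds. Slco2a1, Slco3a1, Ptger1, Cbr1, Zfp36, Zfp36l1, Elavl1, Khsrp, the genes of the Ptgs2 neighbourhood and genes named as listed under 1 FPKM were chosen after their values were seen. The longest 3'UTR per gene was searched, and similar length means 0.8 to 1.25 times that of the member. Python 3.11.15, NumPy 2.4.6, pandas 2.3.3, SciPy 1.17.1 and matplotlib 3.10.9 were used, and the procedures were tested on simulated data. One overlapping-gene result is not reported here.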

Additional observations from a re-analysis of the deposited data

How the results depend on the processing

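Every difference rests on 1 library per group, so the intervals bound counting error and not biological spread. No paired analysis was possible because no group holds more than 1 library. Ptgs2 and Hpgd stayed at least 2-fold higher with a pseudocount of 0.1, without a filter, with a filter at a mean FPKM of 5, and after rescaling or centring. With a pseudocount of 5 the number of members at least 2-fold higher was 1 (Ptgs2, log2 fold change 1.19, with Hpgd at 0.84), and at a 4-fold threshold it was 0. Members at least 2-fold lower numbered 0 under every alternative tried. Ptgfr, with an FPKM ratio of 0.357, could not enter that count. Its mean was under 1 FPKM, and without a filter the pseudocount of 1 left its log2 fold change at -0.26. The median log2 fold change of the members was 0.73 at a mean FPKM of at least 5, which leaves 5 members, and from 0.19 to 0.50 under the other alternatives. None of the 8 members with a mean FPKM of at least 1 changed sign, and 50 of their 53 alternative log2 fold changes moved by less than their counting error. Reads not divided by 2 moved 0 of the 18 interval bounds across 1.

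The number of all genes changed at least 2-fold, 379 here (70.7% of them higher), was 1436 and 26 when the threshold was set to 1.5-fold and 4-fold. It was 739 and 113 for pseudocounts of 0.1 and 5, and 210 if the mean had to reach 5 FPKM. Scaling both libraries to the same sum gave 596, and 638 when the mitochondrial and the 50 most abundant genes were left out of that sum, with 216 and 247 genes lower in place of 111 and 63.8% and 61.3% of the changed genes higher. The common sum was larger than the deposited sums of 343024 FPKM (PRP) and 339238 FPKM (control). Rescaling therefore raised all values, and the unchanged pseudocount of 1 weighed less. These counts hold the change of scale between the libraries and the lighter pseudocount together, and the 2 were not separated. With 6-base seed matches, 1 of 10 members (Ptgs2) matched let-7f-5p and 4 matched miR-16-5p, where 25.5% and 45.3% of 10292 genes did.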

Other observations

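The genes around Ptgs2 were looked at after the values of the members were seen. Within 300 kb of Ptgs2, the nearest base of Pla2g4a lies 138741 bases away on the other strand, with a pseudogene and Ptgs2os between them. The noncoding gene Ptgs2os (chromosome 1, 150074873 to 150099963, minus strand) starts 68 bases from the start of Ptgs2 and runs away from it. It had 0.345 FPKM with PRP and 0.0271 FPKM in the control, from 60 and 4 reads (ratio 12.8, interval 3.24 to 110.2). The noncoding gene Ptgs2os2 (150159043 to 150164948, minus strand) had 6.05 against 2.21 FPKM, a log2 fold change of 1.14, without whole reads and so without an interval. Neither shares exons with Ptgs2. Of 3 other protein-coding genes in the window, Pdc had 4 and 2 reads, too few to show a difference. The other two were close to no change, with Odr4 at 18.8 against 18.7 FPKM (ratio 1.001, interval 0.929 to 1.08) and Tpr at 97.9 against 102.5 FPKM (ratio 0.955, interval 0.936 to 0.974).

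The other routes of arachidonic acid were described in the same way. Of 16 genes of the lipoxygenase and epoxide branch, 4 had a mean FPKM of at least 1, all of them with lower levels in the PRP library and none changed 2-fold, where 50.9% of all genes were higher and 2.00% and 0.828% were 2-fold higher and lower (median log2 fold change -0.15). Microsomal epoxide hydrolase (Ephx1) was the most abundant, at 283.9 against 317.9 FPKM (ratio 0.893, interval 0.869 to 0.917), and Lta4h, the leukotriene A4 hydrolase, had 5.94 against 6.61 FPKM (ratio 0.899, interval 0.808 to 0.999). Alox5, which starts leukotriene synthesis, had 17 and 12 reads, and Aloxe3, the most abundant lipoxygenase, had 0.413 against 0.183 FPKM. The leukotriene receptors Cysltr1 and Cysltr2 were at 0 in both libraries.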
